A study of Mus musculus with 6 samples.

Results

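WT-preferring regions are stretches of the mouse genome where CTCF was called in at most 1 Cgas knockout (Cgas_KO) peak list but in all 3 wild-type (WT) lists of thymic regulatory T cells. They were chosen by the presence of peaks alone. Peaks of the 6 lists on chromosomes 1 to 19 were merged wherever they shared at least 1 bp, which gave 90494 regions, and 1252 of these (1.38%) met the rule. They made up 16.1% of the 7788 regions called in all 3 WT lists. No Cgas_KO list held 346 of them, and 1 Cgas_KO list held the other 906. Because the rule itself compares the genotypes, that difference is a description here and carries no test.

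CTCF is a zinc-finger protein that binds a long DNA motif and halts the cohesin ring as it extrudes chromatin, so its sites often mark the feet of chromosome loops and the borders of contact domains. cGAS is an enzyme that senses double-stranded DNA and signals through STING, and it is also found bound to nucleosomes in the nucleus. Regulatory T cells restrain immune responses and form in the thymus from developing thymocytes.

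The study profiled CTCF in both genotypes by CUT&RUN, in which an antibody directs a nuclease to the bound protein and the released DNA is sequenced. The groups are thymic regulatory T cells labelled Cgas Knockout, 3 libraries, and the same cell type labelled WT, 3 libraries, with 1 list of peaks per library. The labels give no strain, age, sex or animal, so it is not known whether replicates are separate animals. A peak list holds no expression values, so the labelled cell type and the loss of Cgas could not be checked. The lists held 28648 ± 1763 peaks in Cgas_KO and 26696 ± 941 in WT on these chromosomes (SD, n = 3 each). Cgas_KO replicate 3 stood apart, with the narrowest peaks (median 2568 bp, against 3211 to 3599 bp in the other 5 lists). Positions are in mm39. Without an mm39 genome or gene annotation at hand, regions are named by position only, with no gene or sequence.

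Peak height, the highest signal in a peak, came in whole steps of a fixed size per list and is given in these steps or as a percentile within its own list. The step was 0.117, 0.117 and 0.120 units of deposited signal in Cgas_KO replicates 1, 2 and 3. In WT replicates 1, 2 and 3 it was 0.190, 0.212 and 0.195 units. A step thus stood for less signal in every Cgas_KO list than in any WT list. Step size and genotype cannot be told apart here. The sources used here do not state the meaning of a step, and read depth is unknown. Regions called in all 6 lists had median heights of 24, 24 and 18 steps in Cgas_KO replicates 1, 2 and 3, against 30, 27 and 30 steps in WT replicates 1, 2 and 3. The median peak of a list was 14, 14 and 11 steps high in Cgas_KO and 14, 13 and 14 in WT. In steps, shared regions were thus lower in Cgas_KO, while by rank within the list they lay at median percentiles of 88.4 to 88.7 in Cgas_KO and 87.0 to 87.8 in WT. The part of the lower heights in the number of WT-preferring regions was not tested.

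The WT-preferring regions outnumbered those kept by the mirrored rule. Regions in all 3 Cgas_KO lists and at most 1 WT list, called Cgas_KO-preferring below, numbered 919, or 13.6% of the 6756 regions in all 3 Cgas_KO lists. The same rule applied to the 18 sets of 3 lists that mix genotypes kept 755 to 1024 regions. Sets with 2 WT lists gave 851 to 1024, and sets with 1 WT list gave 755 to 861. Counting both sides, the genotypes gave 2171 regions, and the 9 mixed ways to divide the lists gave 1685 to 1803. These counts share the same 6 lists and describe them only. When both genotypes were held to 2 lists, with the region in both of one genotype and in neither of the other, the 9 choices of lists gave 1592 to 1782 regions for WT and 1557 to 1673 for Cgas_KO. The ranges for WT and Cgas_KO thus overlapped with 2 lists a side. Within each choice WT gave more regions, with exceptions only when WT replicate 2 was left out. These were without Cgas_KO replicate 2 (1592 for WT against 1658 for Cgas_KO) and without Cgas_KO replicate 3 (1601 against 1671).

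**Figure D1:**
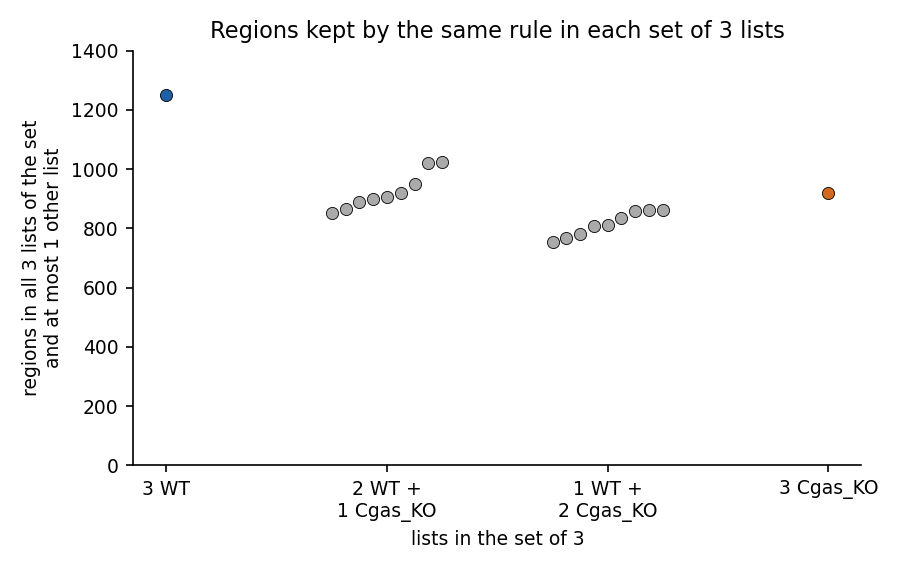
Number of regions called in all 3 lists of a set and in at most 1 of the other lists (vertical axis), for every set of 3 lists grouped by its makeup (horizontal axis), each point being 1 set, sorted within its column. The 3 WT lists gave 1252, the 3 Cgas_KO lists 919, and the mixed sets 755 to 1024.

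Most WT-preferring regions were of middling height. The median height percentile was 68.8, 72.2 and 70.5 in WT replicates 1, 2 and 3, at 19, 18 and 19 steps. For comparison, regions called in all 6 lists stood at percentiles 87.0 to 87.8 in the WT lists, and regions called in a single list at 24.8 to 29.7. Only 28 of the 1252 were among the tallest 10% of peaks in every WT list, while 1053 were there in no WT list. In every WT list, 94 lay below percentile 50 and 751 at or above it. Single-list, WT-preferring and shared regions came in this order of height in each WT replicate. The order was not particular to WT. In the Cgas_KO lists, single-list regions stood at median percentiles of 34.8 to 40.6, Cgas_KO-preferring regions (defined above) at 52.4 to 53.9 and shared regions at 88.4 to 88.7.

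The share of WT-preferring regions fell steadily with height. Among the regions in all 3 WT lists, they made up 32.3% of the lowest 20% by mean height percentile, 21.7%, 16.5% and 8.29% of the next groups, and 1.605% of the highest. Width gave a similar gradient, with 30.0% of the narrowest 20% of merged regions and 3.85% of the widest. Wider merged regions give more room for a Cgas_KO peak, so the gradient by width is partly built into the rule.

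**Figure D2:**
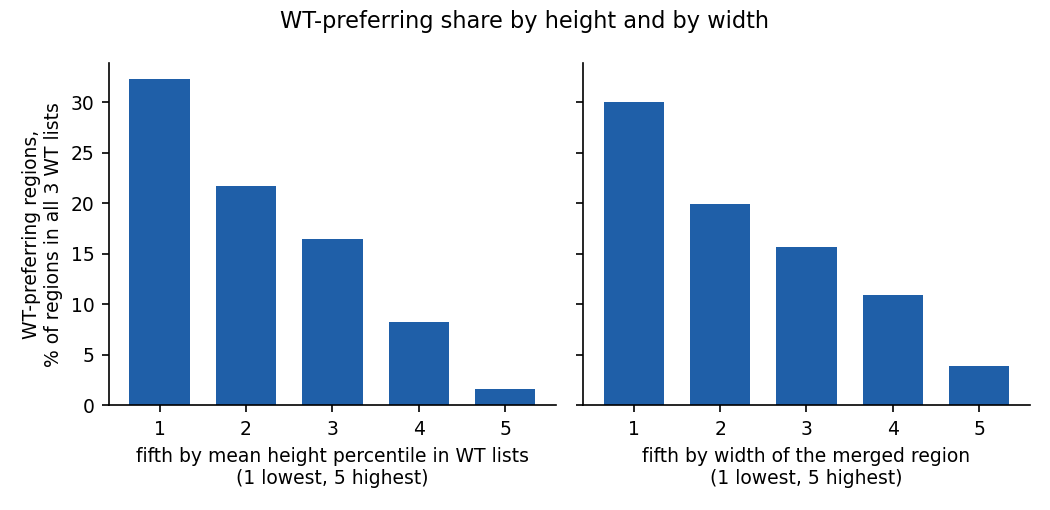
Regions in all 3 WT lists were divided into 5 equal groups by mean height percentile (left) or by merged width (right), and each bar gives the percentage in that group that was WT-preferring. The share was 32.3% in the lowest and 1.605% in the highest height group.

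WT heights shifted gradually across the rule's limit. Regions held by 1 Cgas_KO list, just inside it, had median heights of 18 to 20 steps across WT lists and a median width of 5245 bp. The 1726 regions held by 2 Cgas_KO lists, just outside it, had 20 to 22 steps and a median width of 5894 bp. Regions held by no Cgas_KO list had 16 to 18 steps and a median width of 4812 bp, and those in all 6 lists 27 to 30 steps and 7344 bp. Merged width grows by construction as peaks of more lists are merged in. Median widths of the WT peaks themselves did not rise steadily over regions in 0, 1 and 2 Cgas_KO lists. They were 3121, 3039 and 3138 bp in WT replicate 1 and 3001, 2767 and 2827 bp in WT replicate 2. In WT replicate 3 they were 3176, 3027 and 3127 bp. WT peaks were widest at regions in all 6 lists, at 3485, 3181 and 3522 bp in WT replicates 1, 2 and 3. WT-preferring regions as a whole were 1660 to 23207 bp wide, with a median of 5145 bp. In 1164 of them (93.0%) every WT list contributed a single peak. A base common to the tallest peak of each WT list existed in 1131 (90.3%).

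By maximum signal in 1-bp merged regions, WT-preferring regions stood higher within their own lists than Cgas_KO-preferring regions did within theirs, but the difference depended on the measure and on how regions were built. The medians were percentiles 68.8, 72.2 and 70.5 for WT-preferring regions in WT replicates 1, 2 and 3. For Cgas_KO-preferring regions they were 52.9, 53.9 and 52.4 in Cgas_KO replicates 1, 2 and 3, a difference of 17.4 (SD over lists 1.69 for WT and 0.777 for Cgas_KO, n = 3 each). The lists did not overlap. The lists of a genotype describe the same regions, so these SDs are not those of independent sets, and no p is given. The difference turned to -3.88, -4.85 and -2.76 without WT replicate 1, 2 or 3. There 2 WT lists sufficed on one side, while the other required 3 Cgas_KO lists and still allowed 1 of the 2 WT lists. With 2 lists required on both sides the difference was 8.77 to 13.1. It was 0.555 by total signal in place of maximum signal, 0.25 for regions built from midpoints and 1.13 at 50% coverage. With lists matched to the shortest it was 9.41, and in the top 50% of each list 9.13. Peak widths overlapped, with medians of 3064, 2819 and 3075 bp for WT-preferring regions in WT lists and 3138, 3484 and 2490 bp for Cgas_KO-preferring regions in Cgas_KO lists.

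**Figure D3:**
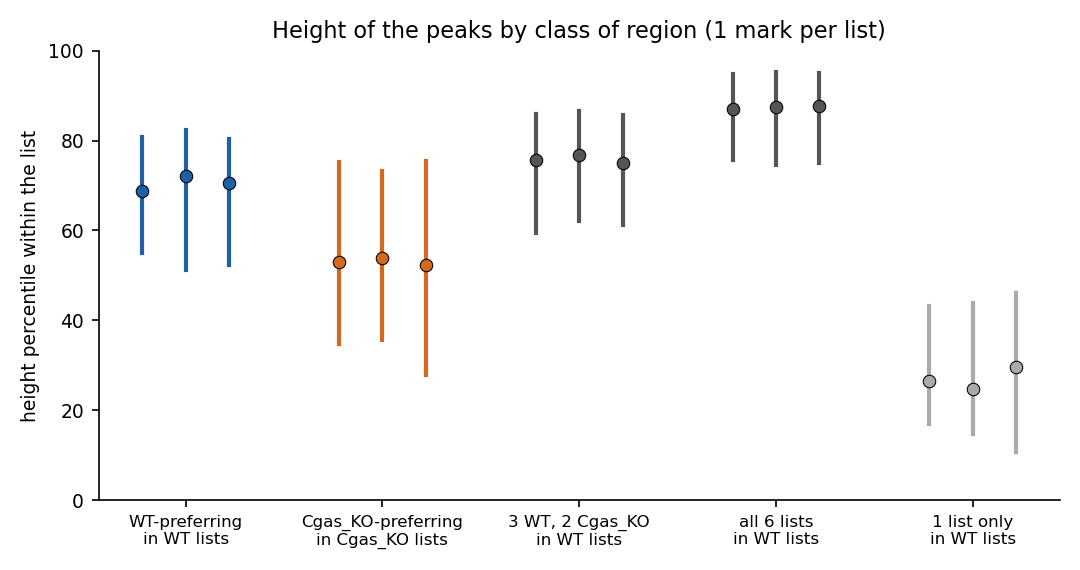
Median height percentile within the list (points) and the range from the lower to the upper quartile of regions (lines), with 1 mark for each of replicates 1 to 3 from left to right, by class of region. WT-preferring regions lay at 68.8 to 72.2 in WT lists, above Cgas_KO-preferring regions in Cgas_KO lists at 52.4 to 53.9 and below regions in all 6 lists.

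In most WT-preferring regions the WT lists placed their highest signal close together. The max-signal interval marks where signal peaks, and its midpoint was not used to choose the regions. This measure was added after the data were seen. The 3 midpoints lay within 500 bp of one another in 771 of 1252 WT-preferring regions (61.6%), with a median spread of 300.0 bp. They did so in 231 of 919 Cgas_KO-preferring regions across the Cgas_KO lists (25.1%), with a median spread of 1309 bp. Agreement was also lower for the Cgas_KO lists at regions called in all 6, at 53.4% in Cgas_KO lists against 66.8% in WT lists, a smaller gap. Its part in the difference between the preferring classes was not tested.

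Per list, the midpoint lay within 500 bp of the mean of the other two in 70.6%, 70.1% and 69.6% of WT-preferring regions for WT replicates 1, 2 and 3. It did so in 42.4%, 42.1% and 42.5% of Cgas_KO-preferring regions for Cgas_KO replicates 1, 2 and 3, a difference of 27.7 percentage points. The lists did not overlap. The difference was 12.3, 12.1 and 13.5 points without WT replicate 1, 2 or 3, 16.2 to 22.5 points with 2 lists required on both sides, and 11.7 points under a demand of 50% coverage of the region by each list's peaks.

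Height went along with this agreement. Between percentiles 60 and 80, 75.8% of 546 WT-preferring regions had midpoints within 500 bp, against 38.7% of 282 Cgas_KO-preferring regions. Above percentile 80 it was 94.8% of 271 and 78.1% of 64. Between percentiles 40 and 60 it was 32.1% of 299 and 15.1% of 385. Below percentile 40 it was 2.94% of 136 WT-preferring and 7.45% of 188 Cgas_KO-preferring regions. At low heights the lists of either genotype thus rarely shared a midpoint, and the WT-preferring class held more tall regions.

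**Figure D4:**
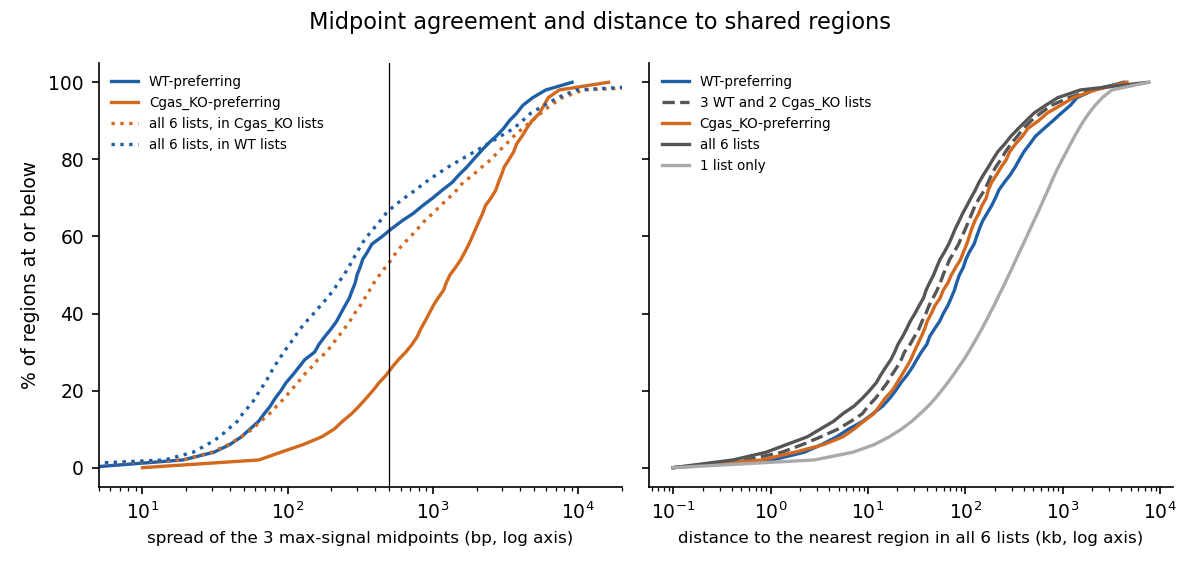
Left, percentage of regions (vertical axis) whose 3 max-signal midpoints spread over at most the distance on the log axis, with a line at 500 bp; 61.6% of WT-preferring and 25.1% of Cgas_KO-preferring regions lie left of it. Right, percentage of regions within the given distance of the nearest region in all 6 lists, on a log axis with distances under 0.1 kb drawn at 0.1 kb; the medians were 86.9 kb for WT-preferring and 71.8 kb for Cgas_KO-preferring regions.

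WT-preferring regions held by 1 Cgas_KO list were spread over the Cgas_KO libraries, with 337 in Cgas_KO replicate 1, 284 in replicate 2 and 285 in replicate 3. The midpoint of the Cgas_KO peak lay within 500 bp of the median WT midpoint in 643 of these 906 (71.0%), at a median offset of 198 bp. Its median height was 15 steps, against 19 steps for the median of the WT heights. As percentiles within the list these medians came to 69.8 in the Cgas_KO list and 72.2 in WT, and the Cgas_KO percentile was the lower in 492 of 906 (54.3%). Where a Cgas_KO list did call such a region, it was at a similar rank to that in WT. Per library, the median percentile of these peaks was 71.2, 71.3 and 62.1 in Cgas_KO replicates 1, 2 and 3, so replicate 3 ranked them lowest.

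At the 346 regions held by no Cgas_KO list, the gap to the nearest Cgas_KO peak of any list was taken, with no baseline from other positions. The median gap was 8748 bp, with quartiles of 3296 and 17146 bp. A Cgas_KO peak lay within 5 kb of 127 of them (36.7%), and only 20 were more than 50 kb from one. The 306 Cgas_KO-preferring regions held by no WT list had a median gap of 7062 bp to the nearest WT peak, with 129 (42.2%) within 5 kb.

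The tallest WT-preferring regions had sharply placed peaks in all WT lists. Among those held by no Cgas_KO list, the highest by mean percentile was chromosome 11 from 100058600 to 100061406. It stood 57, 44 and 53 steps high in WT replicates 1, 2 and 3, at percentile 96.1 ± 0.570 (SD, n = 3), with midpoints within 31 bp. Next came chromosome 6 (145305112 to 145308077), at 41, 42 and 46 steps. It was followed by chromosome 18 (60594316 to 60597143), at 42, 38 and 46 steps. All of these stood at more than the median height of regions in all 6 lists, yet no Cgas_KO list had a peak there.

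The others of this group, in order, were chromosome 3 at 75887477 to 75890161 (37, 45 and 39 steps), chromosome 2 at 164257948 to 164260509 (32, 46 and 39 steps) and chromosome 8 at 106559152 to 106563604 (41, 33 and 35 steps). They were followed by chromosome 4 at 135677706 to 135682844 (42, 29 and 36 steps), chromosome 2 at 170242226 to 170244533 (35, 40 and 26 steps), chromosome 3 at 88373286 to 88378277 (36, 28 and 30 steps) and chromosome 3 at 10012017 to 10014430 (46, 31 and 25 steps). Their midpoints spread over 31 to 136 bp across WT lists, and the nearest region in all 6 lists was 2.56 to 126.6 kb away.

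Among the WT-preferring regions held by 1 Cgas_KO list, the tallest was chromosome 1 from 179302944 to 179306081. Cgas_KO replicate 1 called it at 24 steps, against 62, 65 and 78 steps in WT replicates 1, 2 and 3. Chromosome 17 from 33159442 to 33166905 was called at 52 steps in Cgas_KO replicate 1, against 76, 52 and 57 steps in WT. Chromosome 7 from 84398043 to 84403810 was called at 24 steps in Cgas_KO replicate 2, against 68, 52 and 58 steps in WT. The Cgas_KO height was below all WT heights at the regions on chromosomes 1 and 7, in steps and as a percentile. At that on chromosome 17 it was level with WT replicate 2 in steps but, at percentile 98.2, above all 3 WT lists (97.9, 96.8 and 96.7) by rank.

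Chromosome 6 from 85212631 to 85218186 was called at 49 steps in Cgas_KO replicate 1, against 48, 56 and 64 in WT. Chromosome 11 from 105890946 to 105895091 was called at 41 steps in Cgas_KO replicate 2, against 69, 45 and 50 in WT. Chromosome 2 from 179915249 to 179920212 was called at 39 steps in Cgas_KO replicate 1, against 52, 41 and 61 in WT. In steps, the Cgas_KO height lay within the WT range on chromosome 6 and below it on chromosomes 11 and 2. As a percentile it was 98.03 on chromosome 6, above all WT lists (95.3, 97.3 and 97.4), and within the WT range on chromosome 11 (97.01, against 97.5, 95.7 and 95.8 in WT) and chromosome 2 (96.8, against 95.96, 94.9 and 97.1 in WT).

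The last 4 of the 10 tallest held by 1 Cgas_KO list all had a Cgas_KO height below every WT height in steps. By percentile this held on chromosomes 4, 13 and 14 but not on chromosome 18, where Cgas_KO stood at 94.8, against 97.9, 93.7 and 93.03 in WT. Chromosome 4 from 129818594 to 129823992 had 28 steps in Cgas_KO replicate 1, against 55, 47 and 41 in WT. Chromosome 18 from 34234845 to 34237709 had 32 steps in Cgas_KO replicate 1, against 76, 37 and 39 in WT. Chromosome 13 from 98951514 to 98953404, the one farthest from a region in all 6 lists among these 10 at 393.7 kb, had 30 steps in Cgas_KO replicate 1, against 50, 41 and 42 in WT. Its WT midpoints agreed within 17 bp. For chromosome 14 from 103930313 to 103933509 the height was 21 steps in Cgas_KO replicate 3, against 50, 42 and 40 in WT. Cgas_KO replicate 1 held 7 of the 10, replicate 2 held 2 and replicate 3 held 1. All 10 were picked for a high mean percentile in WT, so a lower height in Cgas_KO follows in part from the choice. Across all 906 regions held by 1 Cgas_KO list, the Cgas_KO percentile was below the median WT percentile in 492 (54.3%).

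WT-preferring regions mostly lay alone. With neighbours counted within 100 kb, 976 of 1252 (78.0%) had no other WT-preferring region nearby, and 276 (22.04%, exact 95% binomial interval 19.8 to 24.4%, counting error only) had one. Of the Cgas_KO-preferring regions, 143 of 919 (15.6%) had another of their kind within 100 kb, and the smaller number of these leaves fewer neighbours to find. Among regions in all 3 WT and 2 Cgas_KO lists the share was 32.7% of 1726, and among regions in all 6 lists 67.1% of 4810. These larger classes leave more neighbours to find, so the shares are not matched for number. There were 19 runs of 3 or more WT-preferring regions, which held 66 of them, against 9 such runs of Cgas_KO-preferring regions.

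The largest run lay on chromosome 12 from 23116383 to 23282665 and held 7 WT-preferring regions in 166.3 kb. No Cgas_KO list had any peak in it. WT replicates 1, 2 and 3 had 11, 11 and 10 peaks there, which covered 32.2%, 33.7% and 34.6% of the run. Heights were modest, from 8 to 26 steps in WT, and midpoints in its 7 regions spread over 297 to 7268 bp. A shorter run on the same chromosome, from 23805672 to 23823965, held 3 regions, again with 0% covered in every Cgas_KO list, against 48.1%, 54.1% and 57.5% in WT replicates 1, 2 and 3. Both lie in the stretch from 18 to 24 Mb, whose bounds were set with these data known, and there 22 of the 25 regions in all 3 WT lists were WT-preferring (88.0%) and 0 regions were Cgas_KO-preferring. The WT-preferring share was 15.8% (43 of 272) on the rest of chromosome 12, close to the 16.1% of all autosomes.

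The second run, on chromosome 1 from 131481169 to 131762451, held 5 WT-preferring regions in 281.3 kb, 3 of them in no Cgas_KO list. It was sparser, with 6, 2 and 5 peaks in Cgas_KO replicates 1, 2 and 3 and 9 in each WT list. Peaks covered 6.66%, 2.41% and 4.28% of it in Cgas_KO and 13.0%, 8.73% and 10.3% in WT. Its first 2 regions were tall and tightly placed. The first stood 29, 27 and 30 steps high in WT, with midpoints within 70 bp and no Cgas_KO peak. The second, from 131539569 to 131543545, stood at 8 steps in Cgas_KO replicate 3, against 30, 28 and 28 steps in WT.

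The run on chromosome 1 from 173737469 to 173811698 held 4 WT-preferring regions in 74.2 kb. Peaks covered 3.82%, 5.002% and 7.85% of it in Cgas_KO replicates 1, 2 and 3, against 46.1%, 46.8% and 49.8% in WT replicates 1, 2 and 3. It contained 0 regions called in all 6 lists. Chromosome 7 from 25271758 to 25360991 held 4 regions and was covered at 8.43%, 3.16% and 3.49% in Cgas_KO and 15.8%, 18.7% and 28.8% in WT. Coverage did not overlap between the genotypes in these 2 runs, nor in most of the 19 runs of 3 or more WT-preferring regions.

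The run on chromosome 11 from 101794035 to 101995769 also held 4 regions, each in 1 Cgas_KO list. Here coverage overlapped, with 6.21%, 6.94% and 11.4% in Cgas_KO and 15.3%, 10.8% and 9.05% in WT. Its tallest region, from 101930116 to 101932769, stood at 23 steps in Cgas_KO replicate 3, against 36, 23 and 47 steps in WT. A run on chromosome 1 from 171340133 to 171501755 held 3 WT-preferring regions and was covered at 10.1%, 9.98% and 6.54% in Cgas_KO, against 41.5%, 40.1% and 32.2% in WT. Runs were drawn around regions that the rule had chosen for their absence from Cgas_KO lists, so lower coverage in Cgas_KO follows in part from the rule.

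**Figure D5:**
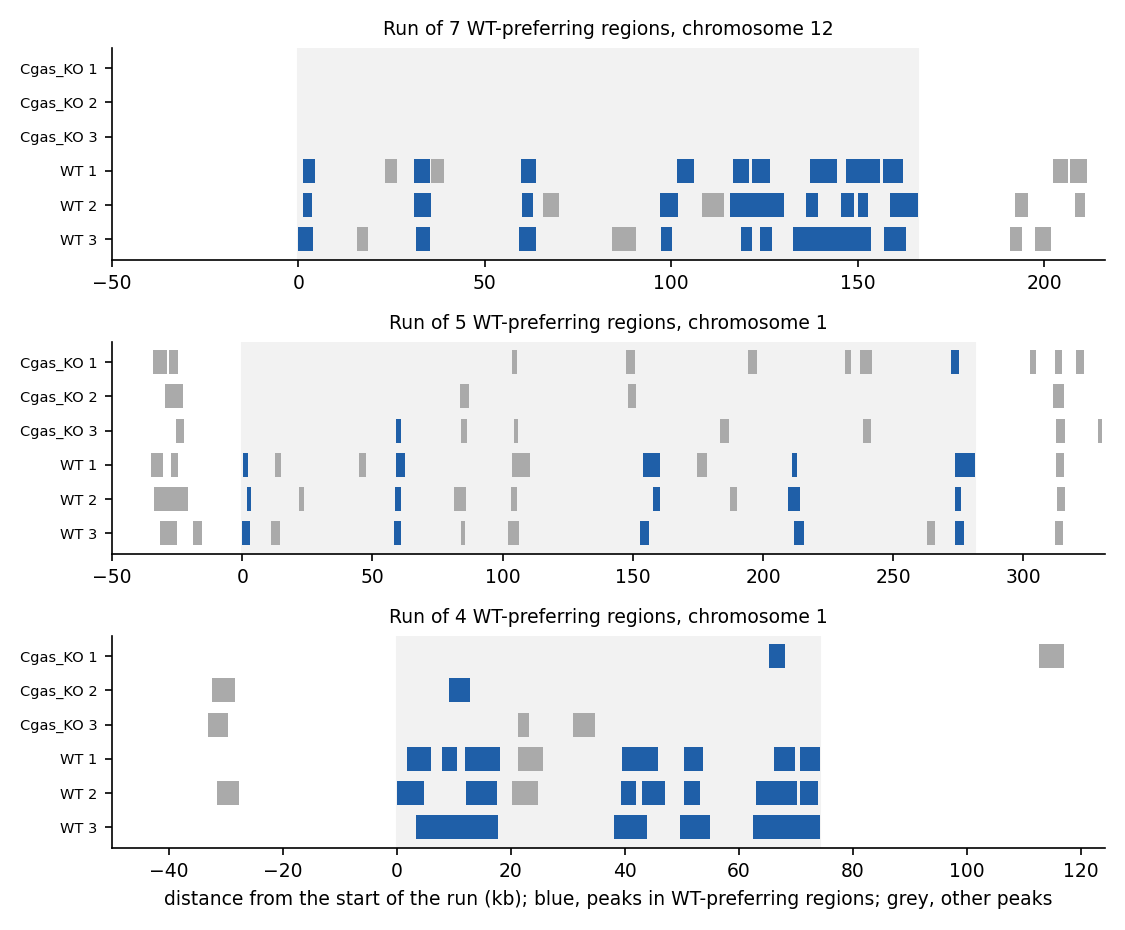
Peaks of each list (bars) along the 3 largest runs of WT-preferring regions, as distance in kb from the start of the run; the shaded part is the run, blue marks peaks in WT-preferring regions and grey other peaks. On chromosome 12 the 3 Cgas_KO lists had 0 peaks in the run, against 10 or 11 in each WT list.

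Over the chromosomes, the share of regions in all 3 WT lists that were WT-preferring ran from 12.7% on chromosome 11 (93 of 730) to 21.97% on chromosome 13 (58 of 264). Their exact 95% binomial intervals, for counting error only, were 10.4 to 15.4% and 17.1 to 27.5%. Chromosome 12 stood at 21.9% (65 of 297), and the largest numbers lay on chromosomes 1 and 11, with 93 each. Chromosome 15, at 12.9% (42 of 325), and chromosome 9, at 13.5% (58 of 431), were among the lowest. Regions held by no Cgas_KO list numbered 33 on chromosome 12 and 32 on chromosome 1, and 6 on chromosome 16.

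WT-preferring regions lay farther from shared sites than the regions just outside the rule did. The nearest region called in all 6 lists was 86.9 kb away in the median, with quartiles of 26.4 and 271.3 kb. The 95% binomial interval of this median was 80.2 to 98.3 kb, for counting error only and taking regions as independent. For regions in 2 Cgas_KO lists and all 3 WT lists the median was 59.1 kb, for Cgas_KO-preferring regions 71.8 kb, and for regions in 1 list 279.8 kb. Regions in all 6 lists were 47.2 kb from the next of their kind. Within the WT-preferring class the median was 100.9 kb for those in no Cgas_KO list and 81.2 kb for those in 1. A shared region lay within 10 kb of 160 (12.8%) and beyond 100 kb for 583 (46.6%). These are descriptions over regions, with no test, and the order of the WT-preferring and Cgas_KO-preferring medians turned round when regions were built from midpoints. Per list, WT-preferring peaks in WT lists lay 15511 bp farther away than Cgas_KO-preferring peaks in Cgas_KO lists. Leaving out a Cgas_KO list let 2 such lists suffice on one side, with 1 of these 2 still allowed on the other. The difference then became -19331, -14267 and -12876 bp without Cgas_KO replicate 1, 2 or 3. It was 265719 bp at 50% coverage, 4192 bp in the top 50% of each list and 28111 bp with no list of the other genotype allowed.

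The most remote WT-preferring region was chromosome 12 from 44336748 to 44342079, 4242 kb from the nearest region in all 6 lists. It was 8 steps high in Cgas_KO replicate 3, against 19, 12 and 11 steps in WT. Chromosome 8 from 80017639 to 80025551 (4179 kb away) and chromosome 6 from 22070330 to 22074039 (3482 kb away) followed. On chromosome 8 the heights were 13 steps in Cgas_KO replicate 3, against 22, 21 and 22 in WT. On chromosome 6 they were 21 steps in Cgas_KO replicate 1, against 15, 17 and 17 in WT. The single Cgas_KO peak was thus the highest there in steps and by percentile (83.4, against 55.1, 69.4 and 64.7 in WT). A step stood for less signal in Cgas_KO, so this order need not hold in deposited signal.

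The widest WT-preferring region, chromosome 12 from 23249124 to 23272330, spanned 23207 bp and belongs to the largest run. Its tallest peaks were 9182, 2544 and 20934 bp wide in WT replicates 1, 2 and 3. Chromosome 3 from 93110396 to 93130287 was next at 19892 bp, with 11 steps in Cgas_KO replicate 1, against 14, 14 and 12 steps in WT. Chromosome 1 from 173737469 to 173755501 spanned 18033 bp, with 12 steps in Cgas_KO replicate 2, against 15, 14 and 15 in WT. None of these widest regions reached the median height of regions in all 6 lists in every WT list, and the WT midpoints on chromosome 3 lay 9084 bp apart.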

How the data were processed

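CUT&RUN for CTCF was done on thymic regulatory T cells, with 3 Cgas_KO and 3 WT libraries grouped by the genotype in the labels. The submitters' processing notes name Bowtie2, an aligner, and SEACR 1.3, a peak caller. The deposited lists, 1 per library and not pooled, give signal, as the total and the maximum per peak. Their names carry 0.01, non and stringent, which are settings of SEACR. The sources used here state neither a control library nor how signal was scaled. Both mm10 and mm39 are noted, and sequence names and chromosome ends fit mm39. The gene table at hand is of another build and was not used.

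Peaks on chromosomes 1 to 19 that share 1 bp were merged. Merging was checked on simulated lists (3000 of 3000 regions returned as planted) and with bedtools 2.31.1, which gave the same 90494 regions. Each list had its own step, and all maxima under 200 steps (100%) were whole steps to a tolerance of 0.01. Percentiles were taken within a list. In a region with several peaks of a list the tallest was used.

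The members, the rule and the measures were chosen with earlier results of these data known. Exact permutation tests over lists were planned for height, width and distance. No p is printed, since 3 lists against 3 cannot go below 0.1, the lists of a genotype share their regions, and the regions were chosen on the same contrast. Named are the 10 regions of highest mean height percentile in no and in 1 Cgas_KO list, the 5 largest runs, the 3 widest and the 3 most remote regions. The run of 3 on chromosome 12, that on chromosome 1 and single regions within runs were picked after their values were seen. Values were computed in Python 3.11.15 with pandas 2.3.3, numpy 2.4.6 and scipy 1.17.1, and drawn with matplotlib 3.10.9. Gene and motif results were not run for want of a matching genome.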

Additional observations from a re-analysis of the deposited data

Results flagged for a closer look

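Chromosome X was outside the rule and, like the autosomes together, carried more WT-preferring than Cgas_KO-preferring regions. With the rule extended to it, 44 regions were WT-preferring, 11 of them in no Cgas_KO list, and 15 were Cgas_KO-preferring. The 44 made up 26.3% of the 167 regions in all 3 WT lists on X, against 16.1% on the autosomes. This was above the highest autosome, chromosome 13 at 21.97%, but within that chromosome's interval for counting error (17.1 to 27.5%). X had fewer regions in all 3 WT lists than any autosome, and no interval was computed for it. The labels give no sex, so a difference in sex between the groups cannot be told apart from genotype. Chromosome X is listed because these peaks enter no comparison above, and no explanation was tested.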

How the results depend on the processing

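In sensitivity runs the midpoint measure and those that leave out 1 list of each genotype, or match lists by total signal, were added after the data were seen. Of 24 alternatives, 16 kept the number of WT-preferring regions within 1.5 times. It was 736 among the top 50% of peaks by total signal, 346 with no Cgas_KO list allowed and 1592 to 2836 with lists left out. Leaving out a list of 1 genotype eases the rule for both classes, so a rise is built in. Cgas_KO-preferring regions numbered 530 at 50% coverage, 373 by midpoints, 485 in the top 50%, 306 with no list of the other genotype and 1557 to 2579 with lists left out. Which regions were kept varied more. Of the 1252, 496 (39.6%) overlapped a WT-preferring region at 50% coverage, 586 (46.8%) by midpoints, 301 (24.04%) in the top 50% and 1228 (98.1%) with lists matched in length.

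The median width was 4895 bp at 50% coverage, 5421 bp merged within 500 bp, 5716 bp in the top 50%, 4812 bp with no Cgas_KO list and 4883 to 5567 bp with lists left out. Midpoint regions have no width. The median distance to a region in all lists was 969815 bp at 50% coverage, 194625 bp by midpoints, 126556 bp in the top 50%, 100854 bp with no Cgas_KO list and 62952 to 99955 bp with lists left out. The share with a neighbour was 28.9% by midpoints, 15.5% in the top 50%, 11.6% with no Cgas_KO list, 11.9% within 50 kb, 35.2% within 200 kb and 21.7 to 39.1% with lists left out. The height percentile was 75.5 at 50% coverage, 78.9 by midpoints, 77.5 in the top 50%, 64.1 with no Cgas_KO list, 53.9 for total signal and 50.2 to 71.1 with lists left out.

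For WT-preferring minus Cgas_KO-preferring regions in their own lists, the height difference fell to 0.555 by total signal, 0.25 by midpoints and 1.13 at 50% coverage, against 17.4 as reported. It was 9.13 in the top 50% and 9.41 with lists matched in length by either ranking, and was -4.85 to 28.7 with lists left out and turned negative without any 1 WT list. The distance difference was -13228 bp by midpoints, 265719 bp at 50% coverage, 4192 bp in the top 50%, 28111 bp with no list of the other genotype and -19331 to 37724 bp with lists left out, negative without any 1 Cgas_KO list. The width difference was 72.5 bp at 50% coverage, 36.8 bp with no list of the other genotype and -373 to 493 bp with lists left out, so its sign is unsettled. Midpoint agreement stayed higher for WT-preferring regions in all 24 alternatives, by 11.7 to 34.7 points. These include the replicate block, which could not change the value. Regions built from midpoints are not among them, as the measure was not computed there. Leaving out 1 list changes the demands on one side only. Otherwise the cause was not tested. Same-numbered lists did not deviate together (correlations of -0.01, -0.01 and -0.01). The labels do not state whether libraries were paired, and these values cannot settle it. With the replicate number as a block the differences could not change, since each block holds 1 list of each genotype. They stayed at 17.4 in height percentile, -51.7 bp in width, 15511 bp in distance and 27.7 points in midpoint agreement. Unknown read depth and 3 lists per genotype limit all values.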
